A study of Mus musculus with 30 samples.

Results

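The 10 genes described here encode ATP-binding cassette (ABC) transporters that lie outside the Abcb1b locus: Abcc1, Abcc3, Abcc4, Abcc5 and Abcc10 of the ABCC family, Abcg1 and Abcg2 of the ABCG family, and Abcb8, Abcd3 and Abca1. They were chosen by name from the 55401 gene identifiers of the count table, and each matched 1 row. Their RNA was measured by 3′-end digital gene expression, in which reads come from the 3′ ends of transcripts, in 30 libraries of a mouse B-cell lymphoma line, each library from 1 line. All lines descend from the Eµ-Myc; p19ARF -/- parental line, which carries a Myc transgene driven by the immunoglobulin heavy chain enhancer and lacks the tumour suppressor p19ARF. 12 libraries are labelled DMSO, from control lines passaged with the solvent alone, 17 are labelled Pac, from lines passaged through repeated cycles of killing by paclitaxel and recovery in drug-free medium, and 1 is the Parental line. Each line grew from a well of its own, so the libraries of a group are parallel evolutions from 1 parental line and not repeats of 1 line, and no line was sequenced again. Whether cells were in drug at harvest is not given in the sources used here.

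ABC transporters use ATP to move substrates across membranes. Abcb1b encodes a mouse P-glycoprotein, the classical pump for paclitaxel, and several other family members also export drugs: the ABCC proteins studied here mostly carry organic anions and glutathione conjugates, and Abcg2 exports a wide range of cytotoxic drugs. Abca1 and Abcg1 export cholesterol and are classical targets of the sterol-sensing LXR receptors, Abcd3 carries fatty acids into peroxisomes, and Abcb8 sits in the inner mitochondrial membrane. The comparison of resistant with control lines asks whether any of these genes changed beside Abcb1b.

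Library totals ran from 1053948 to 6739131 counts in DMSO and from 480919 to 6682169 in Paclitaxel, and the Parental library held 1851837. All 10 B cell markers were detected, with a summed level of 3870 to 6520 CPM (counts per 1000000 counts of the library) in DMSO and 2280 to 6830 CPM in Paclitaxel. The 8 myeloid markers summed to at most 51.1 CPM in any of these libraries, the 8 T and NK cell markers to at most 25.2 CPM and the 8 stromal and epithelial markers to at most 0.849 CPM, and Adgre1, Elane, Cd3e, Cd4, Col3a1 and Dcn held no count. Not every library sat with its label. By mean correlation all 12 DMSO libraries lay nearer to the other DMSO libraries, but so did 12 of the 17 Paclitaxel libraries, which varied more among themselves. Placed between the 2 group means with the library itself left out, DMSO 11, DMSO 12, Pac C1 and Pac H9 lay nearer to the other group. For Abcb1b the library labelled DMSO 12 was the highest of its group at 70.3 CPM, and the library labelled Pac H9 was the lowest of its group at 26.3 CPM. Each library keeps its deposited name below, and the main results are repeated without DMSO 12 and Pac H9.

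The 3 promoters below belong to members that behaved differently. Of the 5 members with enough counts to be tested, Abcd3 had the largest difference between treatments and Abcc4 had the widest spread of log2 CPM among control lines. Abca1 had 1 count in all 30 libraries. Each sequence is the 250 bases before an annotated start, from RefSeq on GRCm38.p6, on the gene's minus strand: Abcd3 at chr3:121815303-121815552, Abcc4 at chr14:118706220-118706469 and Abca1 at chr4:53159896-53160145. Capitals mark matches on either strand to CACGTG, the E-box that Myc can bind, to GGGCGG, the GC box, or to TGACNNNGC, the core of the antioxidant response element.
Abcd3: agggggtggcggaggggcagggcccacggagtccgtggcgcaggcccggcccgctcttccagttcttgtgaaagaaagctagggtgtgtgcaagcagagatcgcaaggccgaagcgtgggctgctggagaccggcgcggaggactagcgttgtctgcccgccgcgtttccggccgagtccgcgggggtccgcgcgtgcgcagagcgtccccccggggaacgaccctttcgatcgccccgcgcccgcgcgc
Abcc4: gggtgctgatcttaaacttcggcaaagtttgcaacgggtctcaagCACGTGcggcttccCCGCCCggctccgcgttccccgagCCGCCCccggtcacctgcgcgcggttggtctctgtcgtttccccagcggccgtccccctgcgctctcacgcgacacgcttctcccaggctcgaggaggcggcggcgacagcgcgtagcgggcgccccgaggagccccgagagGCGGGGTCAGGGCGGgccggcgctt
Abca1: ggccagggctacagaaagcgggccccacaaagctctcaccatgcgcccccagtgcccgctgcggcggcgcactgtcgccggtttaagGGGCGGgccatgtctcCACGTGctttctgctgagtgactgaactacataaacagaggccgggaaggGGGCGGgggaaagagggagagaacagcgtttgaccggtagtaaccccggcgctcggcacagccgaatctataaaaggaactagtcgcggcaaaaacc
These promoters hold 34, 35 and 20 CpG dinucleotides in that order, against a median of 6 over the 32851 promoters of the table. The Abcd3 window holds none of these motifs. The Abcc4 window holds 1 E-box, 3 GC boxes and 1 antioxidant response core, the last directly beside a GC box, and the Abca1 window holds 1 E-box and 2 GC boxes. Over all promoters of this length, 6.02% hold an E-box, 32.7% a GC box and 10.2% an antioxidant response core. So a CpG-rich window with an E-box was present in a member read in every library and in one with almost no reads. The DR4 motif of LXR was searched only as an exact repeat of AGGTCA after a spacer of 4 bases, on either strand. With no mismatch allowed it was found in none of these 3 windows, and in 0.0152% of all promoters. Sites that differ from the exact repeat are missed by this search, so it does not show that a window lacks an LXR site. The table also holds promoters of Abcc5, Abcc10 and Abcg2, so 6 of the 10 members were matched. It lists a second start for Abcd3, whose window holds 35 CpG and none of the motifs, and for Abcc4, whose window holds 4 CpG, no E-box, no GC box and 1 antioxidant response core, and which start the reads come from was not tested.

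The members fell into 3 levels of expression. Abcb8, Abcc1, Abcd3, Abcc5 and Abcc4 were counted in all 30 libraries. Abcg1, Abcc10 and Abcg2 were low and at 0 in some libraries, and Abcc3 and Abca1 were at or near 0 everywhere. Abcg1 lacked a count only in DMSO 9 and Pac C1, the smallest library of each treatment. CPM were scaled by TMM, a factor for the composition of each library, and were not divided by gene length, since reads start at the 3′ end. The order between genes is therefore a description of 3′ tags. In bulk RNA, fewer expressing cells and less RNA per cell cannot be told apart.

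Between treatments no member passed the test. With edgeR's quasi-likelihood F test across 9445 genes, 208 genes (2.20%) were called at an adjusted p under 0.01, 94 higher and 114 lower in Paclitaxel. 5 of the 10 members had enough counts to enter this test, and 0 of the 5 were called. 0 were also called at an adjusted p under 0.05, in an edgeR likelihood ratio test and by DESeq2. Of these 5 members, 1 (Abcd3) had an unadjusted p under 0.05, as had 2368 of all tested genes. In a rank-sum permutation test of single genes (two-sided, 100000 resamples, p not adjusted, 8 members), p was 0.0375 for Abcb8, 0.042 for Abcd3 and at least 0.18 for the other 6. Without DMSO 12 and Pac H9 it was 0.0874 for Abcb8, 0.0226 for Abcd3 and at least 0.107 for the other 6. Without DMSO 12 and Pac H9, edgeR called 321 of 9567 genes (3.36%) and again 0 members. Without the 4 libraries that lay nearer to the other group, it called 491 of 9607 (5.11%) and 0 members. All 5 tested members had a log2 fold change above 0, with a median of 0.28 beside 0.07 over all tested genes, and 5343 of the 9445 genes were above 0.

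Abcd3 (ENSMUSG00000028127.10), the peroxisomal transporter of long and branched chain fatty acids, lies at chr3:121758774-121815302. It ranged from 14.3 CPM, in DMSO 6, over a median of 20.2 to 31.9 CPM, in DMSO 12, among control lines. In Paclitaxel it ranged from 10.45 CPM, in Pac C1, over a median of 23.6 to 45.8 CPM, in Pac E1. Most resistant lines thus lay inside the control range, 5 of 17 lay above all controls (Pac D4, Pac D7, Pac E1, Pac F10 and Pac H8) and 1 lay below. The means were 21.1 ± 4.45 (SD, n = 12) and 26.9 ± 9.40 CPM (SD, n = 17). The log2 fold change was 0.37 (SE 0.17, 95% interval 0.02 to 0.72, edgeR adjusted p = 0.172). Leaving out DMSO 12, the highest control, together with Pac H9 put 7 of 16 resistant lines above all controls, with a log2 fold change of 0.43 (SE 0.17, edgeR adjusted p = 0.110). Among Paclitaxel libraries the log2 CPM of Abcd3 had r = 0.543 with log10 total counts (n = 17). With log10 total counts as a covariate the edgeR log2 fold change of Abcd3 was 0.41 (SE 0.17, adjusted p = 0.102), and with all libraries thinned to 480919 counts it was 0.42 (SE 0.24, adjusted p = 0.295). Pac C1, the lowest library for Abcd3, was also the smallest, with 5 Abcd3 counts among 480919.

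Abcb8 (ENSMUSG00000028973.18, chr5:24393663-24410054), the mitochondrial half-transporter linked to potassium channels and iron export, was the most abundant member by 3′ tags. It ranged from 51.0 over a median of 105.3 to 140.2 CPM in DMSO, and from 26.1 over 127.8 to 175.8 CPM in Paclitaxel. The resistant lines spread past the controls on both sides: 6 of 17 lay above all DMSO libraries and Pac D7 lay below them all. The means were 100.2 ± 24.9 (SD, n = 12) and 122.2 ± 37.0 CPM (SD, n = 17), and the log2 fold change was 0.29 (SE 0.18, 95% interval -0.08 to 0.66, edgeR adjusted p = 0.326).

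Abcc1 (ENSMUSG00000023088.17, chr16:14361558-14475737) encodes MRP1, an exporter of glutathione conjugates and of several chemotherapy drugs. It ranged from 13.98 over a median of 22.8 to 27.9 CPM in DMSO and from 15.7 over 24.4 to 39.6 CPM in Paclitaxel. No resistant line fell below the controls, and 6 of 17 (Pac C3, Pac C11, Pac D7, Pac F10, Pac G9 and Pac H8) lay above them all. The means were 21.96 ± 4.22 (SD, n = 12) and 26.4 ± 6.96 CPM (SD, n = 17). The log2 fold change was 0.26 (SE 0.15, 95% interval -0.04 to 0.57, edgeR adjusted p = 0.273).

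Abcc5 (ENSMUSG00000022822.16, chr16:20331303-20426394) encodes MRP5, an exporter of cyclic nucleotides and nucleotide analogues. It was even among the controls, from 8.94 over a median of 12.3 to 15.9 CPM, and uneven among resistant lines, from 6.20 over 15.2 to 37.6 CPM. 5 resistant lines lay above all controls, 5 lay below all controls and 7 lay between. The highest value, in Pac C1, rests on 18 counts. Among the lines below, Pac D10 held 6 counts, Pac H9 7, Pac C3 10, Pac H3 17 and Pac D4 37. The lowest control, DMSO 9, held 9 counts. In unscaled CPM, the exact 95% binomial intervals of the 5 lines below all included the DMSO 9 value of 8.539. Pac D4, at 8.825, lay above that value. So the lines below were not separated from DMSO 9 by more than counting error. The intervals of the 5 lines above started at 14.36 or more, past the highest DMSO value of 14.14. The means of 12.2 ± 2.02 (SD, n = 12) and 15.1 ± 7.59 CPM (SD, n = 17) gave a log2 fold change of 0.28 (SE 0.21, 95% interval -0.14 to 0.71, edgeR adjusted p = 0.409).

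Abcc4 (ENSMUSG00000032849.14, chr14:118482692-118706219) encodes MRP4, an exporter of cyclic nucleotides and prostaglandins. It ranged from 2.497 CPM, in DMSO 10, over a median of 9.87 to 16.3 CPM in DMSO, and from 4.53 over 8.36 to 22.02 CPM in Paclitaxel. Here the controls were themselves spread widely, and 14 of 17 resistant lines lay within their range, with Pac C11, Pac F10 and Pac H1 above it. The means were 9.21 ± 4.22 (SD, n = 12) and 10.1 ± 5.49 CPM (SD, n = 17), with a log2 fold change of 0.13 (SE 0.28, 95% interval -0.44 to 0.70, edgeR adjusted p = 0.806).

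Without DMSO 12 and Pac H9 the log2 fold changes were 0.26 for Abcb8, 0.27 for Abcc1, 0.32 for Abcc5 and 0.07 for Abcc4, with edgeR adjusted p of 0.420, 0.279, 0.331 and 0.899 in that order. Of the remaining 16 resistant lines, 5 lay above all controls for Abcb8 and 1 below, 6 lay above for Abcc1, 5 above and 4 below for Abcc5, and 3 above for Abcc4.

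**Figure D1:**
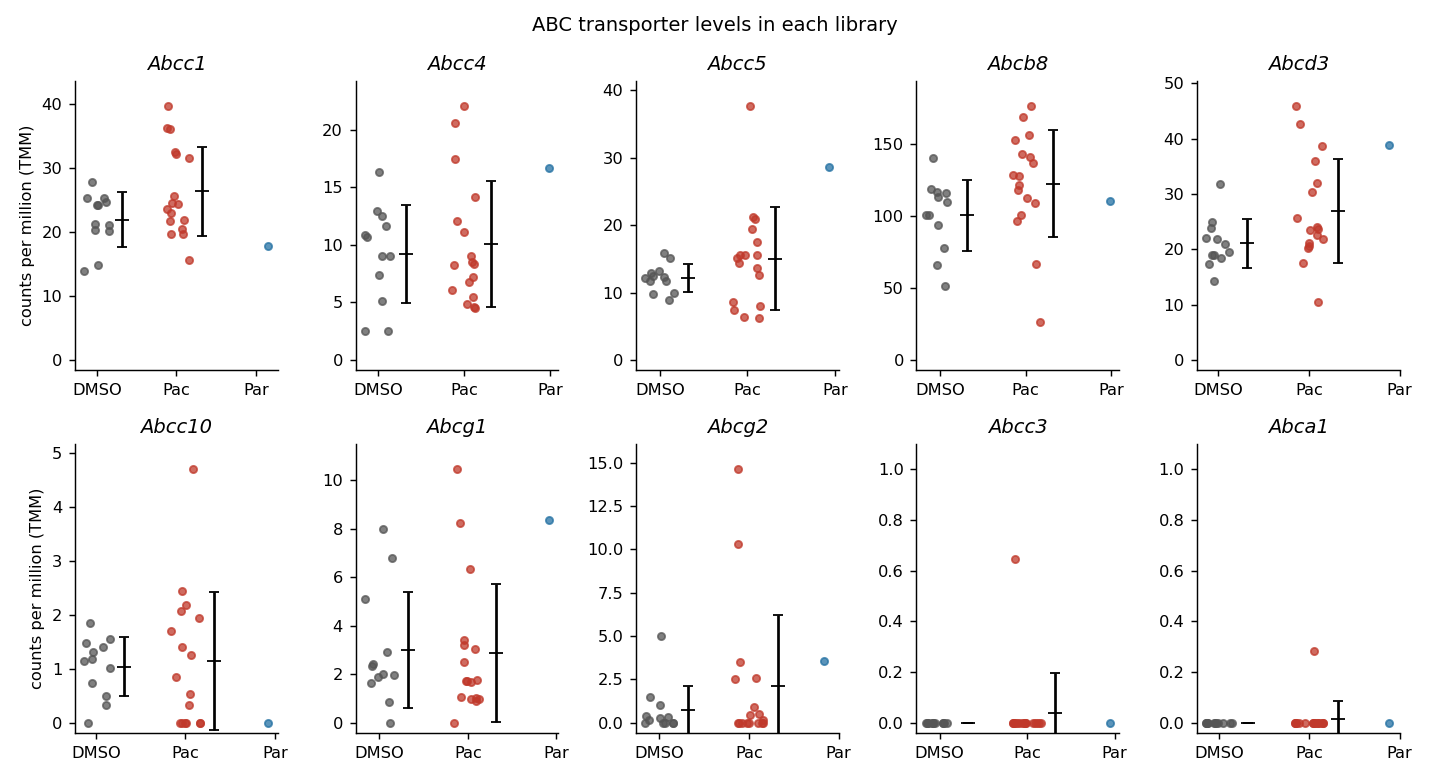
TMM-scaled CPM of the 10 transporters in each library, 1 point per library, for 12 DMSO, 17 Paclitaxel (Pac) and 1 Parental (Par) library; bars give the mean and SD of a group, cut at the axis. Abcc5 is even among the DMSO libraries and uneven among the Paclitaxel libraries, and Abcc3 and Abca1 have a count in 1 library each.

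Abcg1 (ENSMUSG00000024030.7, chr17:31057675-31117988), which exports cholesterol to lipoproteins, had 319 counts in all. It was at 0 in 1 library of each treatment and reached 7.99 CPM in DMSO 10 and 10.5 CPM in Pac D7. The medians were 2.19 CPM in DMSO and 1.72 CPM in Paclitaxel, and 2 of 17 resistant lines, Pac D7 and Pac D10, lay above all controls. Abcg1 varied widely in both groups, with means of 3.00 ± 2.39 (SD, n = 12) and 2.89 ± 2.86 CPM (SD, n = 17).

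Abcc10 (ENSMUSG00000032842.13, chr17:46303221-46328352) encodes MRP7, for which taxanes are known substrates. It had 130 counts in all, with a median of 1.16 CPM and a maximum of 1.85 CPM in DMSO, and a median of 0.849 CPM and a maximum of 4.70 CPM in Paclitaxel. The maximum, in Pac E1, rests on 20 counts. 5 resistant lines lay above all controls, and 6 were at 0. Besides Pac E1, the lines above rest on 9 counts each in Pac D4 and Pac E2 and 5 each in Pac H1 and Pac H3. The highest control, DMSO 3, also held 9 counts. Among the lines at 0, Pac C1, Pac C3, Pac D10, Pac H8 and Pac H9 had totals under 2000000 counts, and Pac G9 had 5315840. The antisense gene Dlk2 covers the 3′ end of Abcc10 and had 1 count in all libraries.

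Abcg2 (ENSMUSG00000029802.13, chr6:58584523-58695676), the breast cancer resistance protein, had 108 counts in all and was at 0 in 5 of 12 DMSO and 8 of 17 Paclitaxel libraries. Its counts were concentrated in a few lines. Pac A6 held 32 counts, or 10.3 CPM, and Pac C1 held 7 counts, or 14.6 CPM, while the highest control, DMSO 10, held 10 counts, or 4.99 CPM. These 2 resistant lines were above all controls. As unscaled CPM, the exact 95% binomial intervals were 8.29 to 17.1 for Pac A6, 5.85 to 29.99 for Pac C1 and 2.30 to 8.83 for DMSO 10, covering counting error only. The median was 0.215 CPM in DMSO and 0.160 CPM in Paclitaxel, so the typical resistant line did not show the level of Pac A6.

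Fitted with no filter on low counts, edgeR gave adjusted p = 0.950 for Abcg1, 0.857 for Abcc10 and 0.412 for Abcg2. The log2 fold changes were -0.07 (95% interval -0.96 to 0.81), 0.21 (-0.87 to 1.29) and 1.32 (-0.45 to 3.08). These intervals are wide, and that of Abcg2 leaves room for a change of several fold.

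Abcc3 (ENSMUSG00000020865.16, chr11:94343295-94392997), the MRP3 exporter of bile acids and glucuronides, had 3 counts, all in Pac D4. Abca1 (ENSMUSG00000015243.4, chr4:53030787-53159895), the cholesterol efflux pump, had 1 count, in Pac D7. Both were at 0 in all 12 DMSO libraries, which allows a level of up to 0.0613 unscaled CPM over the group, at 3 counts. In single libraries 3 counts amount to 0.445 to 2.85 unscaled CPM in DMSO and 0.449 to 6.24 in Paclitaxel. Neither gene exceeded 3 counts in any resistant line.

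Abcb1b (ENSMUSG00000028970.9, chr5:8798147-8866315) gives the scale for these differences. It ranged from 16.04 over 32.4 to 70.3 CPM in DMSO and from 26.3 over 82.2 to 258.5 CPM in Paclitaxel. 13 of 17 resistant lines lay above all controls, and 15 of 16 did without DMSO 12 and Pac H9. Its fold of 2.73 had a 95% interval of 1.94 to 3.85 (edgeR adjusted p = 0.000349). The folds of the 5 tested members were 1.29 for Abcd3, 1.22 for Abcb8, 1.22 for Abcc5, 1.20 for Abcc1 and 1.09 for Abcc4. The upper ends of their 95% intervals were 1.65 for Abcd3, 1.58 for Abcb8, 1.63 for Abcc5, 1.48 for Abcc1 and 1.62 for Abcc4, each below the lower end for Abcb1b.

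The difference itself was tested within libraries, as the log2 ratio of Abcb1b counts to member counts, for 8 members with a permutation test over libraries (two-sided, 100000 resamples, p not adjusted). Abcb1b was chosen with its rise known, so the ratios restate that rise against each member and are not independent evidence of it. For Abcc1 the ratio was 0.54 ± 0.69 (SD, n = 12) in DMSO and 1.66 ± 0.76 (SD, n = 17) in Paclitaxel, a difference of 1.12 (permutation p = 0.00063). The difference was 1.07 for Abcd3 (p = 0.00035), 1.14 for Abcb8 (p = 0.0007), 1.19 for Abcc5 (p = 0.00028) and 1.22 for Abcc4 (p = 0.00445). For Abcc10, Abcg1 and Abcg2, which were at 0 in some libraries, the ratio rests on the 0.5 counts added to each value. Their differences of 1.59 (p = 0.0034), 1.42 (p = 0.00615) and 0.77 (p = 0.375) are given without a reading. Without DMSO 12 and Pac H9 the differences were 1.31 for Abcc1, 1.22 for Abcd3, 1.37 for Abcb8, 1.32 for Abcc5 and 1.51 for Abcc4.

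**Figure D2:**
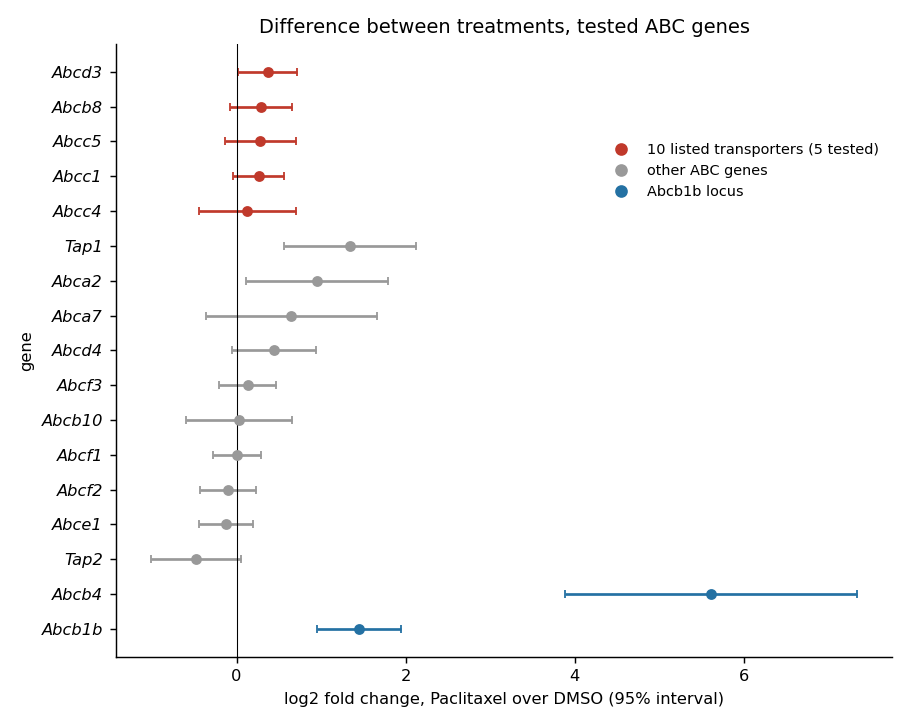
Log2 fold change of Paclitaxel over DMSO with its 95% interval for ABC genes with enough counts to be tested: 5 of the listed transporters, 10 of the 12 other ABC genes (the other two are not reported here) and 2 genes of the Abcb1b locus. The 5 listed transporters lie between 0.13 and 0.37, and Abcb1b at 1.45.

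**Figure D3:**
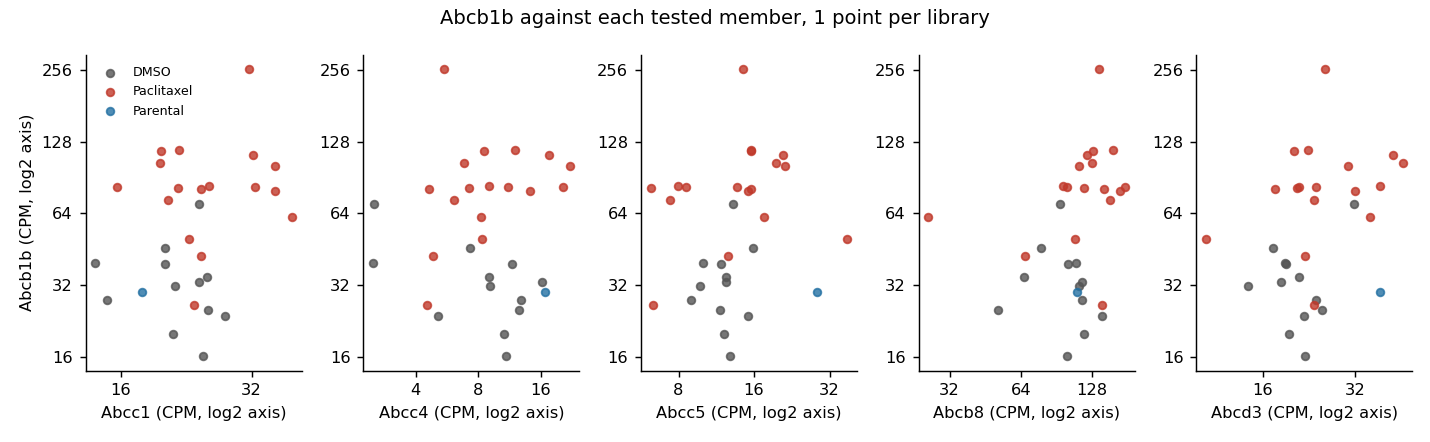
Abcb1b against each of the 5 tested members, in TMM-scaled CPM on log2 axes, 1 point per library. Paclitaxel libraries lie higher than DMSO libraries on the vertical axis, with overlap. On the horizontal axis most lie within the DMSO range for Abcc1, Abcc4, Abcb8 and Abcd3. For Abcc5 7 of 17 do, with 5 above and 5 below.

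The lines differed in which members were high. In 25 of 85 pairs of a tested member and a Paclitaxel library (29.4%) the value lay above all DMSO libraries, beside 14.7% over all tested genes, and in 7 (8.24%) it lay below them all, beside 15.2% over all tested genes. Pac F10 exceeded all controls in 4 of the 5 members, Abcc1, Abcc4, Abcc5 and Abcd3. Pac C11, Pac D7 and Pac H8 did so in 3 each, and Pac A6, Pac D10 and Pac E2 in none. Pac F10 was also the library with the largest share of tested genes above all controls, 25.8%, in a range of 6.86% to 25.8%. The same library is counted in each of its members, so these counts are a description.

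Spread among lines was wider in Paclitaxel than in DMSO for 4 of the 5 tested members, as for 87.2% of all tested genes. The SD of log2 CPM of Abcc5 was 0.230 in DMSO and 0.669 in Paclitaxel. This ratio of 2.90 lay above that of 96.6% of tested genes, whose median was 1.49. The ratio was 1.80 for Abcd3, 1.57 for Abcb8, 1.23 for Abcc1 and 0.854 for Abcc4, the last below that of most genes. Among libraries over 2000000 counts, 11 DMSO and 12 Paclitaxel, the ratio of Abcc5 was 2.31 beside a median of 1.37, and without DMSO 12 and Pac H9 it was 2.66 beside 1.57. The variance of the counts relative to Poisson counting, which grows with the number of counts, is given as a description. Over all tested genes its median was 8.63 in DMSO and 15.1 in Paclitaxel. In DMSO it was 0.864 for Abcc5, 0.953 for Abcc10, 1.99 for Abcc1, 2.64 for Abcd3, 5.51 for Abcc4, 6.61 for Abcg1 and 31.1 for Abcb8. In Paclitaxel it was 5.41 for Abcc5, 3.95 for Abcc10, 5.77 for Abcc1, 10.7 for Abcd3, 11.3 for Abcc4, 8.08 for Abcg1 and 34.8 for Abcb8. Each of these 7 members thus had the larger value in Paclitaxel, as had the median of all genes.

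**Figure D4:**
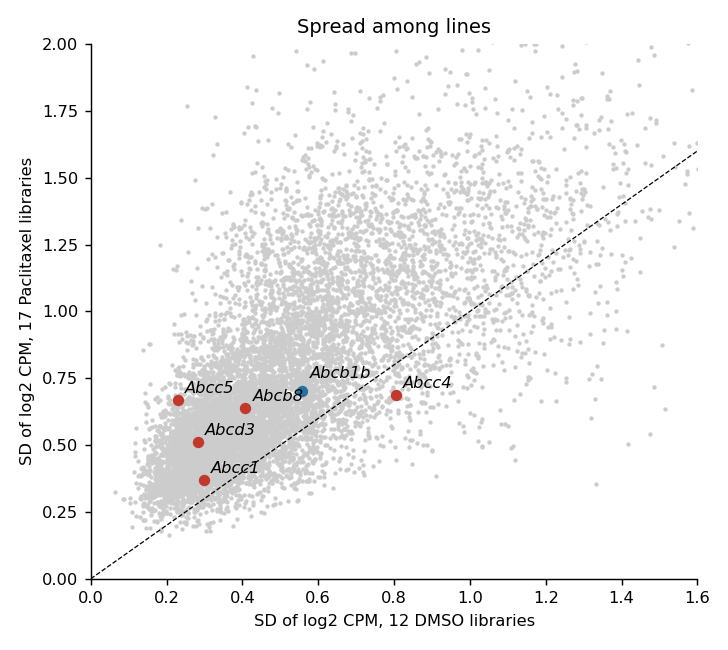
SD of log2 CPM over 17 Paclitaxel libraries against that over 12 DMSO libraries for the tested genes (grey), the 5 tested transporters (red) and Abcb1b (blue); 136 genes lie outside the axes and the dashed line marks equal spread. Abcc5 lies far above the line, at 0.669 against 0.230, and Abcc4 lies below it.

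Over all 29 libraries the tested members varied largely apart from each other. Over the 10 pairs of tested members, Pearson's r of log2 CPM over 29 libraries ran from -0.309, for Abcc1 with Abcb8, to 0.418, for Abcc1 with Abcd3, with a median of 0.0875. With all libraries thinned to 480919 counts these named pairs had r = 0.0424 and 0.235, and the range ran from -0.227, for Abcb8 with Abcd3, to 0.322, for Abcc4 with Abcd3, so the order of the pairs did not hold. With Abcb1b, r was 0.390 for Abcd3, 0.265 for Abcc1, 0.254 for Abcb8, 0.247 for Abcc5 and 0.0388 for Abcc4. Within the 17 Paclitaxel libraries these values were 0.266, 0.117, 0.264, 0.228 and 0.283 in the same order, and within the 12 DMSO libraries they were 0.173, -0.180, -0.167, 0.0853 and -0.544. Between members, some values within the 12 DMSO libraries were larger and changed with thinning. Abcc1 with Abcc5 had r = 0.654 there, and -0.0853 after thinning. Abcb8 with Abcd3 had r = -0.245 there, and -0.761 after thinning. Within the 17 Paclitaxel libraries these pairs had r = 0.180 and -0.208 without thinning. The points share library depth and scaling.

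The genes most like a member were other genes than transporters. For Abcb8 they were Nob1 (r = 0.832, n = 29), Xrcc5 (r = 0.798) and Gpn1 (r = 0.771), which encode a ribosome assembly nuclease, the Ku80 DNA repair protein and a GTPase of RNA polymerase assembly. For Abcd3 they were the lysosomal channel gene Mcoln2 (r = 0.815), Smco4 (r = 0.779) and Mettl14 (r = 0.766), part of the RNA adenosine methyltransferase. For Abcc1 they were the transcription factor genes Csrnp1 (r = 0.737) and Jun (r = 0.727) and the RNA-binding protein gene Rbms2 (r = 0.725). Arl8a (r = 0.658), Atxn2 (r = 0.647) and D10Wsu102e (r = 0.619) came first for Abcc4, and Uap1 (r = 0.677), Mcph1 (r = 0.662) and Fam50a (r = 0.649) for Abcc5. In DMSO alone the r of Abcc5 with Uap1 was 0.142, and in Paclitaxel alone it was 0.734. With all libraries thinned to 480919 counts, 0 of the 3 genes stayed among the first 3 for Abcc1, Abcc5 and Abcd3, and 1 of 3 did for Abcb8 and Abcc4.

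Outside the Abcb1b locus, 50 ABC genes were looked up, the 10 members included, and 13 of them had no count in any library. 17 were tested, 0 were called, also without DMSO 12 and Pac H9, and 4 had an unadjusted p under 0.05. Over all 9445 tested genes, 208 (2.20%) were called and 2368 had an unadjusted p under 0.05. Without DMSO 12 and Pac H9, 321 of 9567 (3.36%) were called. At these shares 0 of 17 called is not a result about the family. Of the 12 tested genes that are not members, the antigen peptide transporter gene Tap1 came nearest, at 9.02 ± 7.03 CPM in DMSO and 22.9 ± 18.9 CPM in Paclitaxel (log2 fold change 1.34, SE 0.38, edgeR adjusted p = 0.0262). Its partner Tap2 had a log2 fold change of -0.48 (edgeR adjusted p = 0.254). Abca2 had 0.95 (edgeR adjusted p = 0.146) and Abca7 had 0.65 (edgeR adjusted p = 0.429). Abcd4, a relative of Abcd3, had 0.44 (edgeR adjusted p = 0.254). The ABCE and ABCF genes, which act in translation and are not transporters, had a median of -0.05 over 4 tested, with Abcf3 at 0.13, Abce1 at -0.12 and Abcf2 at -0.10.

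ABCC proteins carry glutathione conjugates, so the genes that make these were set beside them. Of 14 genes of glutathione supply and conjugation, 10 were tested. Of these, 1 was called higher and 1 lower, beside 2.20% called over all tested genes. Gstm1, a glutathione S-transferase, rose from 4.79 ± 5.62 (SD, n = 12) to 31.98 ± 25.3 CPM (SD, n = 17), a log2 fold change of 2.91 (SE 0.56, edgeR adjusted p = 0.00134). Gsto1, an omega class transferase, fell from 222.0 ± 45.6 to 102.4 ± 32.4 CPM, a log2 fold change of -1.11 (SE 0.14, edgeR adjusted p = 1.28e-05). The median over the 10 was 0.01. Without DMSO 12 and Pac H9 these log2 fold changes were 3.44 for Gstm1 and -1.13 for Gsto1, and edgeR again called 1 gene higher and 1 lower. Of all tested genes it then called 3.36%.

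Of 13 peroxisome partners of Abcd3, 12 were tested and 0 called with or without DMSO 12 and Pac H9, with a median of 0.07. The lowest p were those of the acyl-CoA oxidase gene Acox3 (log2 fold change 0.91, edgeR adjusted p = 0.0703), the import receptor gene Pex5 (1.28, edgeR adjusted p = 0.109) and Pex19 (0.40, edgeR adjusted p = 0.115). Of 14 genes of LXR signalling and sterol handling, the setting of Abca1 and Abcg1, 10 were tested and 0 called with or without DMSO 12 and Pac H9, with a median of -0.02. There the lowest p were those of the lipoprotein receptor gene Scarb1 (0.59, edgeR adjusted p = 0.0577) and the LXR partner gene Rxrb (0.63, edgeR adjusted p = 0.0709). Over all tested genes 2.20% were called, and 3.36% without DMSO 12 and Pac H9. At such shares few or no calls fall in lists of this size, so 0 called is not a result about either list.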

How the data were processed

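The deposited table holds whole-number read counts per gene, which the authors made with STAR 2.5.1b on GRCm38 (mm10) from 3′-end libraries, 1 per line. Whether molecular identifiers were collapsed is not given in the sources used here, so intervals cover counting error only. Libraries were made in 2 subpools whose membership is not given, so a subpool and a treatment cannot be told apart. Symbols and positions come from a GENCODE annotation of the same build, of another release than the one the study names, and 55141 of 55401 identifiers had a symbol. Groups are the labelled treatments. The p-values set a difference between groups against the spread between lines, and the spread itself was not tested. The study's phenotype groups are not in the labels and were not used, and the Parental library stayed outside the tests.

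The counts were fitted with edgeR 4.0.16 (R 4.3.3; TMM factors, genes with low counts removed by filterByExpr, the quasi-likelihood F test, and a threshold of 0.01 after adjustment by Benjamini-Hochberg). A rank-sum permutation test of CPM was run on the 8 members with over 100 counts. The SE of a log2 fold change was derived from the F statistic. Levels are TMM-scaled CPM relative to the counts in tested genes, unscaled CPM are relative to all counts, and log2 CPM used a prior count of 2. Ratios to Abcb1b used an offset of 0.5 counts. DESeq2 1.42.0 was an alternative. On counts simulated for this comparison the test recovered 180 of 190 tested genes changed 4-fold, with 2 false calls among 9254 genes. Smaller changes were not simulated, so this does not show how often folds of 1.09 to 1.29, as in the tested members, would be called. The members and the gene lists were chosen with earlier results of these data known. Some results for single genes of the lists are not reported here. Named genes are all members, of each list those past the threshold or, where none passed, up to 3 with the lowest p, and the 3 genes with the highest r for each tested member. A shift of the labels by 1 library from DMSO 12 on was raised in earlier work on these data and was not tested here. The placing of libraries between group means, the fit without 4 libraries, the spread above 2000000 counts the rank-sum test and the ratios to Abcb1b were added after values were seen.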

Additional observations from a re-analysis of the deposited data

Results flagged for a closer look

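The Parental library entered no comparison. In it 4 members lay above every DMSO library: Abcc5 at 28.6 CPM against a highest DMSO value of 15.9, Abcd3 at 38.8 against 31.9, Abcg1 at 8.35 against 7.99, and Abcc4 at 16.7 against 16.3. In CPM unscaled by TMM, Abcc5 (25.9 against 14.1) and Abcd3 (35.1 against 30.3) still lay above every DMSO library, while Abcc4 (15.1 against 16.4) and Abcg1 (7.56 against 7.68) did not. Abcc5 and Abcd3 rest on 48 and 65 counts, Abcc4 and Abcg1 on 28 and 14. Abcc5 was also above 16 of the 17 Paclitaxel libraries, all except Pac C1, and in unscaled CPM Pac F10 (26.1) was above it too. Over all tested genes, 10.7% were higher in this library than in every DMSO library, and 3 of the 5 tested members were. It is 1 library, so the difference has no replicate check, and a shift of the labels from DMSO 12 on, which was not tested here, would also touch the name Parental. Abcc1 in it was at 17.9 CPM and Abcb8 at 110.3 CPM, inside the DMSO range.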

How the results depend on the processing

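The count of members called stayed at 0 under all 14 alternatives and with each of 29 libraries left out in turn. Over the 213 member log2 fold changes so obtained, 213 were above 0 and 0 passed the threshold. The lowest adjusted p, 0.0341 for Abcd3, came from leaving out the 4 libraries that lay nearer to the other group's mean, which were picked by their values. There Abcd3 (0.51) and Abcc1 (0.30) had larger log2 fold changes, and Abcb8 (0.19), Abcc5 (0.21) and Abcc4 (0.12) smaller ones. Leaving out 1 library moved the log2 fold change of Abcd3 between 0.30 and 0.43, of Abcb8 between 0.24 and 0.35, of Abcc1 between 0.20 and 0.32, of Abcc5 between 0.18 and 0.33 and of Abcc4 between 0.00029 and 0.26. The number of genes called, 208, was 448 with the likelihood ratio test, 491 with DESeq2, 321 without DMSO 12 and Pac H9, 338 without DMSO 11 and Pac C3, 491 without the 4 libraries, 126 with all libraries thinned to 480919 counts, which left 5179 genes and 3 members tested, and 714 at an adjusted p under 0.05. For the other changes the cause was not tested. Leaving out 1 library gave 139 to 299. The likelihood ratio test called 232 genes higher and 216 lower, and DESeq2 267 and 224, so which direction held more genes depended on the method. Scaling by library totals alone called 191 genes higher and 88 lower, in place of 94 and 114, raised the median of all genes from 0.07 to 0.19, and gave the members adjusted p from 0.0815 for Abcd3 to 0.603 for Abcc4. No paired analysis was possible because DMSO lines are numbered and Paclitaxel lines are named by well, so the groups share no replicate label.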
